A study of Mus musculus with 6 samples.

Results

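The genes described here are 7 members of a lipid transport and uptake group, namely *Apod*, *Apoe*, *Clu*, *Lcn2*, *Lrp1*, *Abca1* and *Lpl*. All 7 were found by symbol among the 23284 genes listed for each sample. They were chosen by name with their FPKM (a read-based level scaled to gene length and library size) on both days already known, so their difference between the days is given as a description, without a test. The samples were ECFP+ osteoblasts (OBs) sorted on day 10 (n = 3) and day 14 (n = 3) from ectopic bone that BMP-2 had induced under the skin of *Col2.3*-ECFP mice. The ECFP reporter of these mice is driven by part of the type I collagen promoter, so any cell with that promoter active could enter the sort. Both groups came from males aged 12 to 16 weeks that carried a collagen sponge with 2.5 μg of BMP-2, and in both the gate left out dead cells and CD45+ cells. The bone received 1 collagenase digestion on day 10 and 2 on day 14, so the effects of digestion and day cannot be told apart. The titles give day 14 to all samples of the later group, whereas the descriptions of replicates 2 and 3 name day 15 and day 16. The titles were followed.

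Lipids travel between cells on lipoprotein particles and on small carrier proteins. Apolipoproteins such as ApoE coat the particles and dock on lipoprotein receptors, among them LRP1, which takes them into the cell. Lipoprotein lipase frees fatty acids from the triglyceride of such particles, and ABCA1 hands cholesterol and phospholipid from the cell to lipid-poor apolipoproteins. ApoD and lipocalin 2 belong to the lipocalins, which fold into a barrel around a small ligand, and clusterin, also called ApoJ, is a secreted chaperone that also binds lipoproteins. OBs are known to take up lipoprotein remnants, which carry fatty acids and fat-soluble vitamins to bone.

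In the GENCODE vM21 annotation of mm10, the 7 genes are protein-coding and lie on 7 chromosomes. *Apod* is at chr16:31296192-31314808, *Apoe* at chr7:19696109-19699188, *Lcn2* at chr2:32384633-32388252, *Lrp1* at chr10:127538161-127621148 and *Abca1* at chr4:53030787-53159895, all on the minus strand. *Clu* is at chr14:65968483-65981547 and *Lpl* at chr8:68880491-68907448, both on the plus strand. RefSeq promoter windows (GRCm38.p6) were matched for 5 of the 7, namely *Apod*, *Apoe*, *Lcn2*, *Lrp1* and *Abca1*. The 250 bases before the start are shown for 3 of these genes whose day 14 samples were all above the day 10 samples and for *Abca1*, whose samples overlapped. Capitals mark matches, on either strand, to the TATA box (spelled TATAAA), the GC box (spelled GGGCGG), the NF-Y box (spelled CCAAT), the nuclear receptor half-site (spelled AGGTCA), the E-box (spelled CACGTG) or the AP-1 site (spelled TGACTCA). The windows are chr16:31314809-31315058 for *Apod*, chr7:19699189-19699438 for the outermost *Apoe* start, chr10:127621149-127621398 for *Lrp1* and chr4:53159896-53160145 for *Abca1*, each printed 5′ to 3′ on the minus strand.
Apod: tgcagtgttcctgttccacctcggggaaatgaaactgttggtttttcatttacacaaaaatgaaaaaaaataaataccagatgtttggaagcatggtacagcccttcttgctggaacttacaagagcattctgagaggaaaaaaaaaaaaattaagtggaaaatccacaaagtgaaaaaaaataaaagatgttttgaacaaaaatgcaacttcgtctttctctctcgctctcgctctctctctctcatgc
Apoe: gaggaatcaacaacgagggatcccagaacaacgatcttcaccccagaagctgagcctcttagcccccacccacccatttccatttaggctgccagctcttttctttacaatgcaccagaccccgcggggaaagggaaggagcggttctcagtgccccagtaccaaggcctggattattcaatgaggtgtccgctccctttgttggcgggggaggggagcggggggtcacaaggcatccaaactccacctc
Lrp1: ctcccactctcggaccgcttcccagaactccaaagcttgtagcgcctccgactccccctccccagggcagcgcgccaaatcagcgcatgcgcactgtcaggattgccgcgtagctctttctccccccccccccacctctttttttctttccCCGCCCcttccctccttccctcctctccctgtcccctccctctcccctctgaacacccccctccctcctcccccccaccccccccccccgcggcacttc
Abca1: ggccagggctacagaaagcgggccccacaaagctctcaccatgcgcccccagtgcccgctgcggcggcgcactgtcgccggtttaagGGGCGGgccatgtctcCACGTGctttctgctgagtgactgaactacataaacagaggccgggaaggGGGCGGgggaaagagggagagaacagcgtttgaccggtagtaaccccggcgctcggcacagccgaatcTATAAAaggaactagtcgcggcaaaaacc
The 4 windows have little in common by these letters. The *Apod* window held none of the 6 motifs and had a GC content of 36.4%, against a median of 52.4% over 32851 windows of the same length. The *Apoe* window shown also held none, while the window of a second *Apoe* start held 2 overlapping TATA box matches, 1 on each strand. The *Lrp1* window had 67.2% GC and 1 GC box, and the *Abca1* window held 2 GC boxes, 1 E-box and 1 TATA box. Of all windows, 32.7% held the GC box, 12.4% the TATA box, 33.8% the NF-Y box, 14.0% the half-site, 6.02% the E-box and 4.46% AP-1. A match is a run of letters and was not tested as a binding site.

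Depth was estimated from the steps between low FPKM values at 4557696 to 7790266 mapped reads per sample. With this depth, *Apod*, *Apoe*, *Lrp1*, *Abca1* and *Lpl* each rested on at least 146 estimated reads in every sample and *Clu* on at least 31.8. *Lcn2* rested on 30.1 and 43.1 estimated reads in a pair of samples and on 1.08 to 2.16 in the other 4. The 12 OB markers, led by *Col1a1*, *Col1a2* and *Sparc*, summed to 50502 to 94431 FPKM on day 10 and 37246 to 67384 FPKM on day 14. The sort itself selects cells with the type I collagen promoter active. A high sum was therefore partly set in advance and does not check OB identity. Replicate 2 of day 14 stood apart from the other day 14 samples, with 2488 summed FPKM of 12 chondrocyte markers against 235 and 174, and 21.0 summed FPKM of 13 macrophage markers against 296 and 689. Each of the 12 OB markers was also higher in it than in replicates 1 and 3 of day 14. Its OB marker sum of 67384 FPKM lay within the day 10 range, while replicates 1 and 3 had 42029 and 37246 FPKM. *Dlx5* had 9.84 FPKM in it against 0.979 and 1.01, with 7.56 to 9.88 FPKM on day 10. *Sp7*, at 27.9 FPKM in it, was below all day 10 samples. Which sample is typical of day 14 cannot be told. For the members and the lipid handling lists, the fold changes and counts of calls are therefore also given without it. In RNA from sorted bulk cells, fewer cells of a type and less RNA per cell cannot be told apart.

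Of the 7 members, *Apoe*, *Apod*, *Lpl*, *Clu* and *Lrp1* were higher in every day 14 sample than in every day 10 sample, while *Abca1* and *Lcn2* overlapped. *Apoe*, *Lpl*, *Apod* and *Clu* had fold changes between 2.65 and 3.75 on the scale of FPKM + 0.1, and *Lrp1* had 1.42. Over all 19526 genes with a mean above 0.1 FPKM, 7.59% had all day 14 samples above all day 10 samples and 6.67% had them all below. Of the members, 4 met the rule of a fold change over 2 with an unadjusted p under 0.05 from limma (a linear model across all genes) in the direction of day 14, as did 1.79% of all genes. By Benjamini-Hochberg adjusted p from limma under 0.05, 0 of 7 members passed, against 0.0154% of all genes, and by unadjusted p from limma, 5 of 7, against 10.0%. Since the members were chosen with these values known, nothing is read from these counts.

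**Figure D1:**
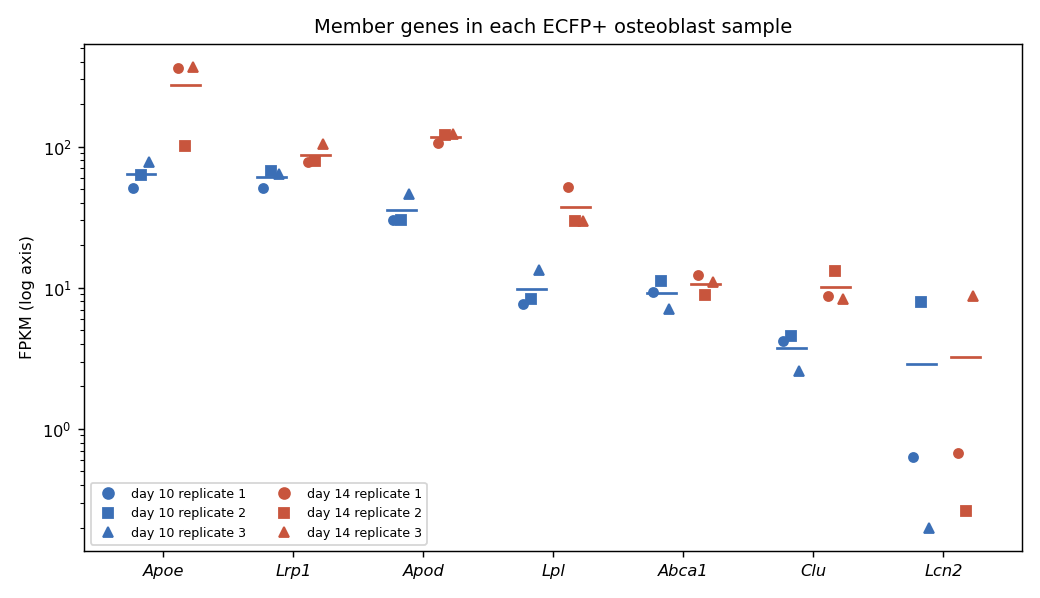
FPKM of the 7 members on a log axis, with 1 point per sample (blue, day 10; red, day 14; shapes, replicates 1 to 3) and a bar at each day mean. The red points lie above the blue points for *Apoe*, *Lrp1*, *Apod*, *Lpl* and *Clu*, and the days overlap for *Abca1* and *Lcn2*, the latter spreading from 0.199 to 8.77 FPKM.

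Among the secreted carriers, *Apod* had the narrowest spread on day 14. Its level was 30.2, 30.1 and 46.4 FPKM in replicates 1, 2 and 3 of day 10 and 107, 120 and 122 FPKM in those of day 14. The lowest day 14 sample was 2.30 times the highest day 10 sample, and within day 14 the highest was 1.14 times the lowest. The day means were 35.6 ± 9.37 FPKM (SD, n = 3) and 116 ± 8.28 FPKM (SD, n = 3), which gave a log2 fold change of 1.73 with a standard error of 0.20. The gap between the days was thus larger than the spread within either day, and it held at 1.71 on the log2 scale without replicate 2 of day 14. When all genes were ordered by mean FPKM, *Apod* stood at place 1583 on day 10 and at place 541 on day 14.

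*Apoe* was the member with the highest mean on both days. Day 10 gave 51.2, 62.7 and 78.4 FPKM. On day 14, 359, 101 and 366 FPKM were found in replicates 1, 2 and 3. Replicates 1 and 3 of day 14 were thus far above the rest, and replicate 2 was 1.28 times the highest day 10 sample. The day means were 64.1 ± 13.6 FPKM (SD, n = 3) and 275 ± 151 FPKM (SD, n = 3), and the log2 fold change was 1.90 with a standard error of 0.46. The size of the difference depended on replicate 2 of day 14, without which the log2 fold change was 2.52. *Apoe* moved from place 894 to place 213 among all genes.

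Macrophages make much ApoE, and the macrophage markers moved with *Apoe* among the day 14 samples. The 13 macrophage markers, of which *Lyz2*, *Cd14* and *Tyrobp* had the highest means, summed to 41.2, 179 and 141 FPKM on day 10 and to 296, 21.0 and 689 FPKM in replicates 1, 2 and 3 of day 14. In replicate 2 of day 14, *C1qa*, *C1qb*, *Fcer1g* and *Emr1* (now *Adgre1*) were listed at 0 and *Lyz2* had 6.35 FPKM, its lowest value of the 6 samples, while *Apoe* was at 101 FPKM and above all day 10 samples. In replicate 3 of day 14 *Lyz2* reached 454 FPKM. The pan-leukocyte gene *Ptprc*, which encodes the CD45 used for the gate, had 0.134 to 2.99 FPKM in all 6 samples. In replicates 1 and 3 of day 14 the macrophage sum was above all day 10 sums, and in replicate 2 it was below them. None of the 13 markers met the 2-fold rule over all 6 samples, which does not show that their levels were alike. Their part in the level of *Apoe* in replicates 1 and 3 was not tested.

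**Figure D2:**
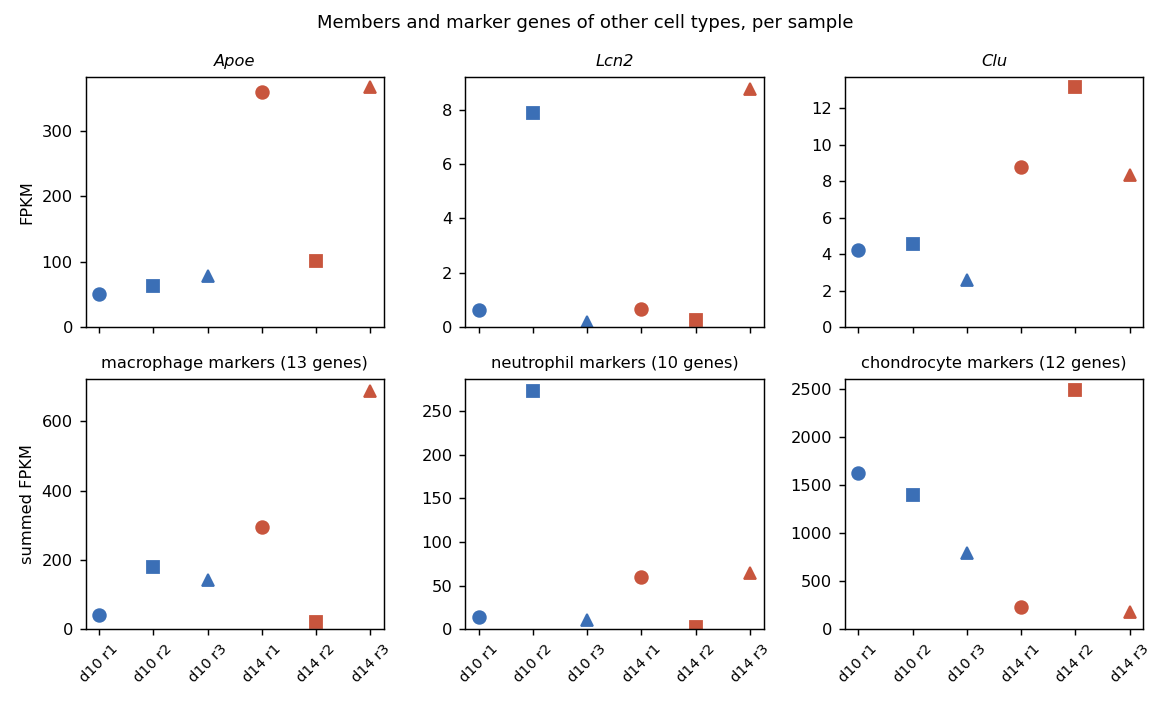
FPKM of *Apoe*, *Lcn2* and *Clu* (upper row) and summed FPKM of macrophage, neutrophil and chondrocyte markers (lower row) in each of the 6 samples (d, day; r, replicate; blue, day 10; red, day 14). In replicate 2 of day 14 the macrophage sum is at its lowest, 21.0, while *Apoe* stays above the day 10 samples, and the same sample holds the highest chondrocyte sum and the highest *Clu* value.

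*Clu* was low in all samples. Its values were 4.21, 4.54 and 2.57 FPKM on day 10 and 8.74, 13.2 and 8.31 FPKM on day 14. The days did not overlap, with the lowest day 14 value at 1.83 times the highest day 10 value. The means were 3.77 ± 1.06 FPKM (SD, n = 3) and 10.1 ± 2.68 FPKM (SD, n = 3), and the log2 fold change was 1.40 with a standard error of 0.29. The highest value fell in replicate 2 of day 14, where the 12 chondrocyte markers, led by *Comp*, *Col2a1* and *Col11a2*, were also highest in sum. *Comp* had 1383 FPKM and *Col2a1* 688 FPKM there. *Col9a1*, *Col9a2*, *Col9a3*, *Col11a2* and *Matn1* were not at their highest in that sample, while the other markers of the list were. *Col9a1*, *Col9a3* and *Col11a2* met the 2-fold rule in the direction of day 10, against 2.04% of all genes. In replicates 1 and 3 of day 14 the chondrocyte sum was below that of all day 10 samples, which had 787 to 1626 FPKM, while *Clu* was above them. Without replicate 2 of day 14 the log2 fold change of *Clu* was 1.20.

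*Lcn2*, whose protein binds bacterial iron carriers and is made by neutrophils and inflamed tissues, followed the day in neither direction. It had 7.89 FPKM in replicate 2 of day 10 and 8.77 FPKM in replicate 3 of day 14. The other 4 samples had 0.633, 0.199, 0.678 and 0.261 FPKM, each below the level of 3 reads on this gene in that sample, which was 0.553 to 0.946 FPKM. The high and low samples thus fell on both days, and the SD of 4.32 FPKM on day 10 and 4.80 FPKM on day 14 exceeded the means of 2.91 and 3.24 FPKM. The fitted log2 fold change was 0.17 with a standard error of 1.41, and it ranged from −1.18 to 1.53 when 1 sample was left out, with 1.12 without replicate 2 of day 14. The 10 neutrophil markers, led by *S100a8*, *S100a9* and *Retnlg*, summed to 274 FPKM in replicate 2 of day 10 and 64.0 FPKM in replicate 3 of day 14. They summed to 59.6 FPKM in replicate 1 of day 14, where *Lcn2* was low, and to 2.35 to 13.6 FPKM in the other 3. The part of these markers in the level of *Lcn2* was not tested.

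The receptor gene *Lrp1* was at a level near that of *Apoe* on day 10. It had 51.1, 67.5 and 63.6 FPKM on day 10 and 77.6, 79.0 and 104 FPKM on day 14. The days did not overlap, although the lowest day 14 sample was only 1.15 times the highest day 10 sample. The means were 60.7 ± 8.54 FPKM (SD, n = 3) and 86.7 ± 14.6 FPKM (SD, n = 3), which gave a log2 fold change of 0.51 with a standard error of 0.18. It was 0.57 without replicate 2 of day 14.

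*Abca1*, the exporter, had 9.38, 11.1 and 7.11 FPKM on day 10 and 12.4, 8.83 and 10.9 FPKM on day 14. Its samples overlapped, and the means of 9.20 ± 2.02 and 10.7 ± 1.78 FPKM (SD, n = 3 each) differed by less than 1 SD of either day. The log2 fold change was 0.23 with a standard error of 0.22, and it was 0.36 without replicate 2 of day 14.

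*Lpl* had a difference between the days as large as that of *Apoe*, with less spread on day 14. Day 10 gave 7.65, 8.32 and 13.3 FPKM, and day 14 gave 52.0, 29.6 and 29.8 FPKM. The lowest day 14 sample was 2.23 times the highest day 10 sample. The means were 9.75 ± 3.08 FPKM (SD, n = 3) and 37.1 ± 12.9 FPKM (SD, n = 3), and the log2 fold change was 1.91 with a standard error of 0.29. Without replicate 2 of day 14 it was 2.04. *Lpl* moved from place 4580 to place 1616 among all genes.

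Adipocytes are another source of *Lpl*, and several of their defining genes were at or near 0. *Adipoq* had at most 0.213 FPKM, *Plin1* at most 0.150 and *Cidec* at most 0.439, and *Cfd* was listed at 0 in all 6 samples. The sum of the 10 adipocyte markers was 12.8 to 19.7 FPKM on day 10 and 22.7 to 33.9 FPKM on day 14, most of it from *Fabp4*, which is also in the fatty acid binding protein list and is expressed in endothelial cells and macrophages. *Pparg* had 0.822 to 3.58 FPKM with overlapping days. *Cebpa*, which is not confined to adipocytes, had 1.43 to 1.79 FPKM on day 10 and 2.09 to 3.95 FPKM on day 14, without overlap (log2 fold change 0.93, adjusted p = 0.405 from limma, unadjusted p = 0.0209 from limma). The 10 endothelial markers, led by *Flt1*, *Tek* and *Esam*, summed to 2.49 to 5.55 FPKM on day 10 and to 26.3, 6.55 and 11.8 FPKM in replicates 1, 2 and 3 of day 14, again without overlap. The mean of each of the 10 was higher on day 14. Of them, 3 (*Emcn*, *Flt1* and *Esam*) met the 2-fold rule in that direction, against 1.79% of all genes. Their adjusted p from limma was 0.440, 0.337 and 0.374. *Emcn* was low, at 0 to 0.583 FPKM, and *Flt1* alone had 13.8 FPKM in replicate 1 of day 14. The sum of 11 fibroblast markers, led by *Dcn*, *Lum* and *Mfap5*, did not overlap either. It was 4184 to 5110 FPKM on day 10 and 5313 to 6594 FPKM on day 14. Taken singly, only 1 of the 11, *Fbln1*, had all day 14 samples above all day 10 samples, against 7.59% of all genes. Of these 11, *Cd34*, *Mfap5* and *Fbln1* met the 2-fold rule in the direction of day 14, against 1.79% of all genes. The 8 pericyte and smooth muscle markers, led by *Acta2*, *Tagln* and *Pdgfrb*, summed to 399 to 845 FPKM on day 10 and 618 to 764 FPKM on day 14. Of these 8, 1 had all day 14 samples above all day 10 samples, against 7.59% of all genes. This was *Pdgfrb*, at 40.5 to 66.6 FPKM on day 10 and 77.8 to 105 FPKM on day 14. The 8 Schwann cell markers, led by *Mbp* and *S100b*, summed to 3.23 to 4.54 and 3.05 to 3.88 FPKM, with *Gfra3* listed at 0 throughout. All 12 OB markers had a lower mean on day 14, and *Sp7*, *Dlx5* and *Phex* met the 2-fold rule in that direction, against 2.04% of all genes. No marker of any list had an adjusted p under 0.05 from limma. The part of these markers in the levels of *Apod*, *Lpl*, *Lrp1* and *Clu* was not tested.

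**Figure D3:**
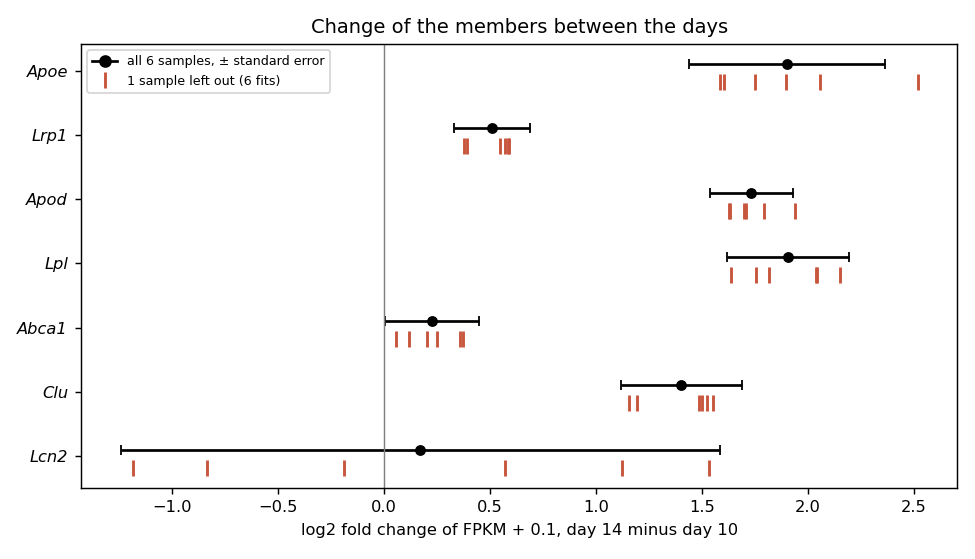
Log2 fold change of FPKM + 0.1, day 14 against day 10, for each member, as black points with the standard error from limma over all 6 samples, and red ticks for the 6 fits with 1 sample left out. The ticks of *Apod* lie between 1.63 and 1.94 and those of *Apoe* between 1.59 and 2.52, while those of *Lcn2* fall on both sides of 0.

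FPKM is per length, so levels were set side by side between the members. Their longest coding transcripts ran from 915 bases (*Lcn2*) to 14888 bases (*Lrp1*). The annotation behind the FPKM is not given, and even coverage along transcripts was not checked, so ratios between members are approximate. On day 10 *Apoe* and *Lrp1* shared the top, with a ratio of *Apoe* to *Lrp1* of 0.929 to 1.23, and did not differ beyond their spread. *Apod* came next in all day 10 samples, with *Lrp1* at 1.37 to 2.24 times its level. On day 14 this order was turned, and *Lrp1* was at 0.659 to 0.850 times the level of *Apod* in all 3 samples. *Apoe* was first in replicates 1 and 3 of day 14 at 3.36 and 3.01 times the level of *Apod*, but second in replicate 2 at 0.839 times. *Lpl* and *Abca1* changed places among themselves on day 10, at ratios of 0.748 to 1.87, while *Lpl* was 2.72 to 4.20 times *Abca1* on day 14. *Clu* was below *Lpl* in all 6 samples. *Abca1* was above *Clu* in 5 of 6 samples, replicate 2 of day 14 being the exception.

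Genes with a pattern like that of each member were sought among 6745 genes with a mean of at least 5 FPKM, by the root mean square difference between centred log2 profiles over the 6 samples. *Cxcl2*, a chemokine gene, was nearest to *Apod* with a difference of 0.120, followed by the chaperone gene *Hsph1* with 0.224. The chemokine gene *Cxcl14* was nearest to *Apoe* with 0.192, going from a mean of 13.3 to 51.9 FPKM, and *Iigp1*, an interferon-induced GTPase gene, came next with 0.259. For *Clu* the nearest were *Lgals3* with 0.295 and *Mgp*, a mineralization inhibitor, with 0.310. For *Lpl* they were *Cyp2d22* with 0.254 and *Aldh1a1* with 0.305. The flatter profiles of *Lrp1* and *Abca1* had closer matches, with *Mtmr6* and *Frrs1* at 0.0535 and 0.0554 from *Lrp1*, and *Mrc2* and *Tenc1* at 0.0944 and 0.0960 from *Abca1*. No close match was found for *Lcn2*, whose nearest genes *Cxcl3* and *Lilrb4* were 1.25 and 1.29 away. Among the members themselves, *Lrp1* and *Abca1* were nearest to each other with a difference of 0.317, and the nearest to both *Apod* and *Apoe* was *Lpl*, at 0.345 and 0.546. These differences describe 6 samples and were not tested.

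Outside the members, 6 lists of lipid handling genes with 131 genes in all were set against the days, and 120 of these genes passed the filter on low values. None had an adjusted p under 0.05 from limma over all genes, and 24 of the 120 had an unadjusted p under 0.05, against 10.0% of all genes. By the 2-fold rule with an unadjusted p under 0.05, 4 genes were higher on day 14 (3.33%, against 1.79% of all genes) and 6 were lower (5%, against 2.04% of all genes), while 3.83% of all genes met it in either direction. The smallest adjusted p was that of *Abcg1* (0.305 from limma), so the values below describe genes that did not pass over all genes tested. The count by the 2-fold rule rested on the samples used, and without replicate 2 of day 14 it was 20.

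Most other apolipoprotein genes were scarcely detected. The exception was *Apol6*, at 3.51 to 9.23 FPKM with overlapping samples (a log2 fold change of 0.51, adjusted p = 0.651 from limma). *Apoa2*, *Apoc1* and *Apoc4* were listed at 0 in all samples, and *Apoa1*, *Apoa5*, *Apoc3* and *Apom* were above 0 in 1 sample each. *Apob* had 0.0738 to 0.479 FPKM. The list's highest genes were *Pltp*, which encodes a phospholipid transfer protein, with 109 ± 35.2 FPKM on day 10 and 98.1 ± 25.3 FPKM on day 14 (SD, n = 3 each), and the paraoxonase genes *Pon3* and *Pon2*. Of its 13 tested genes, only *Apobr*, an apolipoprotein B receptor gene, met the 2-fold rule. It went from 0.663 ± 0.279 to 1.43 ± 0.240 FPKM (SD, n = 3 each), a log2 fold change of 1.06 (adjusted p = 0.483 from limma). The call was lost with a pseudocount of 1, with a mean above 1 FPKM required, and without a filter on low values. It was also lost without replicate 1 or 3 of day 10 or replicate 2 or 3 of day 14. The list median was 0.13 on the log2 scale, against −0.04 for all genes. No gene of the list (0 of 14) met the rule without replicate 2 of day 14, and its median was then 0.01, against 0.02 for all genes.

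The lipocalin and fatty acid binding protein list had the lowest median, −0.48, with 3 of 14 tested genes meeting the 2-fold rule, all lower on day 14. *Fabp3*, a fatty acid carrier gene of muscle and heart, went from 13.3 ± 7.14 to 3.06 ± 1.43 FPKM (SD, n = 3 each), a log2 fold change of −1.97 (adjusted p = 0.310 from limma, standard error 0.51). *Fabp7* had a log2 fold change of −2.17 (adjusted p = 0.360 from limma) and *Crabp1*, a retinoic acid binding protein gene, had −2.55 (adjusted p = 0.405 from limma). In these 3 genes every day 14 sample was below every day 10 sample, and *Crabp1* was low, at 0 to 4.09 FPKM. *Bsg*, which encodes a proposed ApoD receptor, had 415 to 448 FPKM in all samples, a log2 fold change of −0.06. *Slc22a17*, which encodes a lipocalin 2 receptor, had 5.76 to 17.5 FPKM and a log2 fold change of −0.77 (adjusted p = 0.527 from limma). The retinoid carrier genes *Crabp2* and *Rbp4* were the next highest after *Bsg*. The call of *Crabp1* was lost without replicate 2 or 3 of day 10. Without replicate 2 of day 14, 2 genes (*Fabp4* and *Crabp2*) met the rule in the direction of day 14 and 5 in that of day 10, with *Rbp4* and *Slc22a17* added to the 3, and the list median was −0.36.

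Among 22 lipoprotein and scavenger receptor genes, 0 met the rule in the direction of day 14 and 2 in that of day 10. *Vldlr*, which encodes the VLDL receptor, went from 25.0 ± 11.3 to 10.3 ± 5.94 FPKM (SD, n = 3 each), a log2 fold change of −1.31 (adjusted p = 0.377 from limma, standard error 0.43). *Scarb1*, which encodes an HDL receptor, went from 25.6 ± 9.29 to 11.6 ± 6.68 FPKM (SD, n = 3 each), a log2 fold change of −1.20 (adjusted p = 0.398 from limma, standard error 0.41). For both, replicate 2 of day 14 was above the lowest day 10 sample. *Lrpap1*, which encodes the chaperone of LRP1, had 60.5 to 70.6 FPKM, a log2 fold change of 0.07 with a standard error of 0.13. *Lrp10* had 51.3 to 64.1 FPKM, with a log2 fold change of 0.17. *Plaur*, whose product LRP1 clears from the cell surface, was the highest of the list at 77.5 to 191 FPKM. The list median was 0.09. Both calls were lost without replicate 1 of day 10 and without replicate 1 or 3 of day 14, and that of *Scarb1* also without the mean-variance trend and without replicate 2 of day 10. Without replicate 2 of day 14, 3 genes met the rule in the direction of day 14, the scavenger receptor genes *Cd36*, *Olr1* and *Msr1*, and 3 in that of day 10, with *Sort1* added, and the list median was 0.30.

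Of 24 lipolysis and fatty acid uptake genes, 1 met the 2-fold rule, *Angptl4*, which encodes an inhibitor of lipoprotein lipase. It went from 115 ± 23.9 to 252 ± 140 FPKM (SD, n = 3 each), a log2 fold change of 1.02 (adjusted p = 0.395 from limma, standard error 0.34). Its values were 107, 142 and 96.5 FPKM on day 10 and 165, 178 and 414 FPKM on day 14, so replicate 3 of day 14 was far above the others. *Lmf2* and *Lmf1*, the first a homologue of lipase maturation factor 1 and the second the gene of that factor, had log2 fold changes of −0.12 and −0.14. *Sel1l*, whose product also takes part in lipase folding, had 23.7 to 27.7 FPKM on day 10 and 33.3 to 34.1 FPKM on day 14, a log2 fold change of 0.40 (adjusted p = 0.397 from limma). *Gpihbp1*, the endothelial anchor of the lipase, was listed at 0 in replicates 1 and 2 of day 10 and replicate 2 of day 14 and had 0.654, 4.08 and 1.44 FPKM in the remaining samples. In 5 of the 24 genes, all day 14 samples were above all day 10 samples, against 7.59% of all genes, and in 0 were they below, against 6.67% of all genes. This was not particular to the list. The cholesterol efflux list had 5 of 23 genes above and 1 below, and the lipocalin list 0 of 14 above and 3 below. Over the 120 tested genes of the 6 lists, 14 were above and 7 below. The call of *Angptl4* was lost with scaling to the 75th percentile, without the mean-variance trend, and without replicate 1 or 3 of day 10 or replicate 3 of day 14. The list median was 0.07. Without replicate 2 of day 14, *Angptl4* and *Gpihbp1* met the rule in the direction of day 14 and *Lipc* in that of day 10, and the median was 0.12.

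In the list of 23 cholesterol efflux and liver X receptor genes, *Abcg1* and *Ch25h* met the 2-fold rule in the direction of day 14 and *Scd1* in that of day 10. *Abcg1*, which encodes the exporter that works after ABCA1, had 0.764, 1.52 and 1.92 FPKM on day 10 and 7.33, 3.03 and 4.54 FPKM on day 14. Its log2 fold change was 1.75 with a standard error of 0.43. *Ch25h*, whose product makes 25-hydroxycholesterol, had a log2 fold change of 1.35 (adjusted p = 0.422 from limma) at 0.318 to 2.48 FPKM. *Scd1*, a fatty acid desaturase gene, went from 18.8 ± 7.19 to 8.78 ± 4.47 FPKM (SD, n = 3 each), a log2 fold change of −1.14 (adjusted p = 0.438 from limma), with overlapping samples. The receptor genes *Nr1h2* and *Nr1h3* had log2 fold changes of −0.16 and 0.33. *Npc2*, which moves cholesterol out of lysosomes, was the highest of the list at 61.7 to 70.1 FPKM on day 10 and 78.0 to 101 FPKM on day 14 (log2 fold change 0.43, adjusted p = 0.406 from limma), followed by *Scd2* and *Soat1*. The call of *Scd1* was lost without the mean-variance trend and without replicate 1 or 2 of day 10 or replicate 1 or 3 of day 14. That of *Ch25h* was lost with a pseudocount of 1 and without replicate 2 of day 10 or replicate 1 of day 14, while *Abcg1* met the rule under all 14 alternatives. The list median was 0.04. The same 3 genes met the rule without replicate 2 of day 14, with a median of 0.10.

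None of the 24 cholesterol synthesis genes met the 2-fold rule, and 18 of them had a lower mean on day 14. The list median was −0.20, against −0.04 for all genes. *Insig2* and *Ebp*, the highest of the list, had log2 fold changes of −0.68 and 0.33. When replicate 2 of day 14 was left out, 1 gene met the rule in the direction of day 10, *Sc4mol* (now *Msmo1*), and the list median was −0.37.

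**Figure D4:**
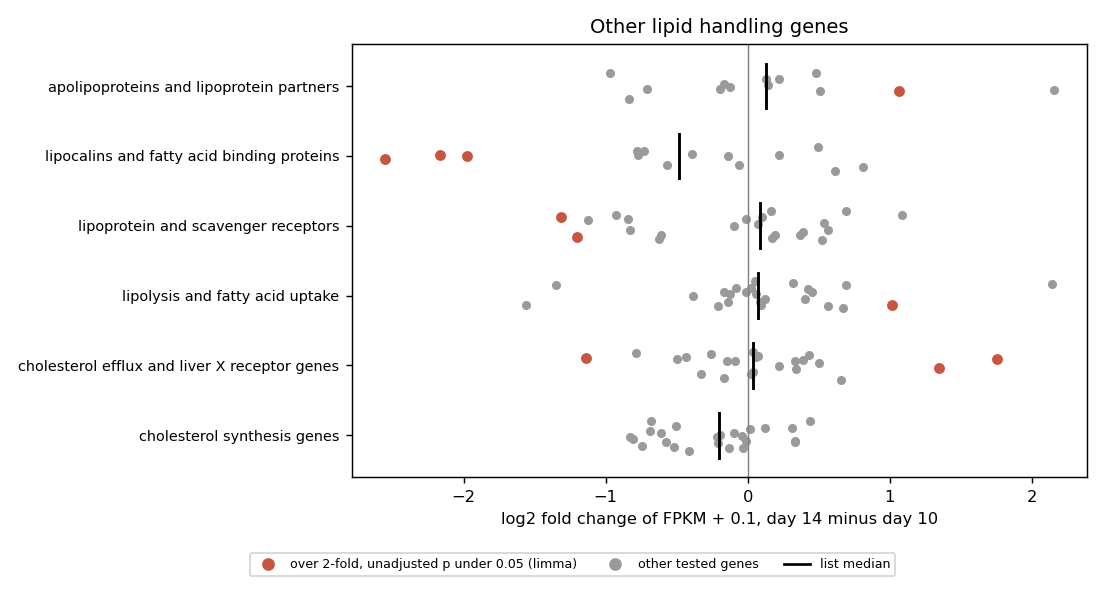
Log2 fold change of FPKM + 0.1, day 14 against day 10, for the tested genes of 6 lipid handling lists, with 1 point per gene, list medians as black bars, and in red the genes over 2-fold with an unadjusted p under 0.05 from limma. Red points stand on both sides of 0, and 3 of them, *Fabp3*, *Fabp7* and *Crabp1*, lie on the left in the list of lipocalins and fatty acid binding proteins.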

How the data were processed

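ECFP+ OBs from 3 samples of day 10 and 3 of day 14 were measured by RNA-seq with 75-base single-end reads. The authors mapped the reads to mm10 with TopHat2 2.0.13, Bowtie2 2.2.3 and SAMtools 0.1.19 and deposited FPKM per gene from Cufflinks 2.2.1, 1 file per sample. The gene annotation used for this is not given in the sources used here. The files list 23284 genes in 1 order, and 25 symbols that had become dates in 1 file were restored by position. The 7 members and the gene lists were chosen with earlier results of these data known.

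Genes with a mean above 0.1 FPKM were compared on log2(FPKM + 0.1) with limma 3.58.1 in R 4.3.3 (eBayes with a mean-variance trend, two-sided, day as the only factor), with Benjamini-Hochberg adjustment over all of them. Fold changes on this scale understate the change of low genes. The 2-fold rule was a fold change over 2 with an unadjusted p under 0.05. The fit was tested on simulated data with independent noise for each gene. That noise held no shift shared by a whole sample, so nothing about the present samples is drawn from it. In the lists, 3 genes were matched under older symbols through RefSeq synonyms. Named are the members, in each list up to 3 genes with the highest mean and up to 3 per direction meeting the 2-fold rule at a mean of at least 1 FPKM, the 2 genes nearest to each member, and leading or absent markers. Other list and marker genes were named after their values were seen, for their known tie to a member or as examples of a list's range. A few genes that these rules name are not reported here.

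Depth was estimated from 1977 genes with 1 annotated transcript of 1500 to 8000 bases at up to 0.3 FPKM, taking 220 bases, found by a scan, as the fragment length. Of the low values, 74.7% to 79.7% came within 0.1 of a whole number of reads. Estimated reads used the longest coding transcript and are approximate, and floors of 3 reads cover counting error only. The labels name no batch or date, and say that the samples are biological replicates but not whether implants were pooled. Alternatives were the pseudocount, the filter, the scaling, the trend, a replicate block and leaving out each sample.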

Additional observations from a re-analysis of the deposited data

How the results depend on the processing

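All members kept their direction under the 8 other settings of pseudocount, filter, scaling, trend and replicate block, and the values of *Apod*, *Apoe*, *Clu*, *Lrp1*, *Abca1* and *Lpl* stayed above 0 in all 6 fits with 1 sample left out. *Lcn2* fell below 0 in 3 of those fits. With 1 sample left out, the log2 fold change ranged from 1.63 to 1.94 for *Apod*, 1.59 to 2.52 for *Apoe*, 1.15 to 1.55 for *Clu*, 1.64 to 2.15 for *Lpl*, 0.38 to 0.59 for *Lrp1*, 0.06 to 0.37 for *Abca1* and −1.18 to 1.53 for *Lcn2*. Over all genes, 748 met the 2-fold rule, 363 with a pseudocount of 1, 476 with a mean above 1 FPKM required, and 440 to 1594 with 1 sample left out (440 without replicate 1 of day 10, 1594 without replicate 1 and 1327 without replicate 2 of day 14). An adjusted p under 0.05 from limma was reached by 3 genes, and by 3 to 76 with 1 sample left out (76 without replicate 2 of day 14, 5 and 6 without replicates 2 and 3 of day 10, 6 without replicate 1 of day 14). The lipid handling lists held 10 genes meeting the 2-fold rule, and 5 to 20 with 1 sample left out (5 without replicate 1 of day 10, 6 without replicate 2 of day 10 or replicate 3 of day 14, 20 without replicate 2 of day 14). The cause of these moves was not tested. Deviations from the day means of same-numbered samples correlated across genes at 0.0580, −0.00584 and 0.0887, and those of differently numbered samples at −0.0978 to 0.0202. Deviations from a mean of 3 samples sum to 0, so these values cannot settle whether the replicate numbers pair the samples. With the replicate block, 2 genes reached an adjusted p from limma under 0.05, 839 met the 2-fold rule, and 11 of these were in the lipid handling lists. Depth limits *Lcn2* and the apolipoprotein genes under 1 FPKM.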

Other observations

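Some genes in the lipid handling lists had their highest value by far in replicate 3 of day 14, and those named here were chosen because their values were seen to stand out. *Crabp2*, a gene of a retinoic acid binding protein, had 187 FPKM in that sample against 18.0 to 51.2 FPKM in the other 5. *Angptl4* had 414 FPKM there against 96.5 to 178 FPKM in the other 5. At lower levels, *Msr1* had 3.32 FPKM there against 0.401 to 1.02 FPKM, and *Apoc2* had 1.67 FPKM against 0 to 0.398 FPKM. *Apod*, with 122 FPKM in replicate 3, and *Lpl*, with 29.8 FPKM, did not stand apart from the other day 14 samples there.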
